A study of Mus musculus with 23 samples.

Results

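Transcript levels of the receptors that use the common gamma chain, and of the cytokine IL-15, were examined in whole mouse tumors. The 8 genes were chosen by symbol, with earlier results of these data known. They were matched to Ensembl identifiers with the GENCODE mouse annotation: Il2rg, Il2rb, Il2ra, Il15ra, Il15, Il4ra, Il7r and Il21r. All 8 were found among the 26869 genes of the deposited table, and all 8 passed the minimum of 5 counts summed over the tumors of a fit. Bulk RNA sequencing was performed on 23 MC38 tumors, a colon carcinoma cell line of C57BL/6 origin, grown in F1 hosts that each had a C57BL/6J parent and a parent from a Collaborative Cross (CC) line, a panel of recombinant inbred mice. The study named CC001F1, CC002F1 and CC075F1 as responder (R) and CC036F1, CC079F1 and CC080F1 as non-responder (NR) hosts for antibody against PD-1 (aPD1). The labels do not give this class, which is the study's own. The other parents were CC001/UncJ, CC002/UncJ and CC075/UncJ for the R hosts, and CC036/UncJ, CC079/TauUncJ and CC080/TauUncJ for the NR hosts. All hosts were female, 8 to 12 weeks old, and received 500000 MC38 cells. When tumors measured 75 to 110 mm3, a host received 200 µg of aPD1 (clone 29F.1A12) or of the isotype control antibody (clone 2A3), and the tumor was taken 48 h later. Each line had 2 tumors per antibody except CC080F1 with aPD1, which had 1, giving 6 R isotype, 6 R aPD1, 6 NR isotype and 5 NR aPD1 tumors. An F1 host carries a C57BL/6J copy of most genes, and the tumor cells were the same line in every host.

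Cytokines of this family signal through shared receptor parts. IL-2 and IL-15 both use the beta chain encoded by Il2rb together with the common gamma chain encoded by Il2rg, and differ in their private alpha chains, encoded by Il2ra and Il15ra. IL-4, IL-7 and IL-21 bind receptors in which the chain encoded by Il4ra, Il7r or Il21r pairs with the common gamma chain. Signals pass through the kinases JAK1 and JAK3 to STAT transcription factors and govern survival, growth and differentiation of T cells, natural killer (NK) cells and B cells. IL-15 is largely shown to lymphocytes by neighbouring myeloid cells that carry it on IL-15 receptor alpha, and the IL-4 receptor is also borne by macrophages and by many non-immune cells.

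Values are estimated read counts divided by a size factor per tumor, called normalized counts here, and log2 differences come from DESeq2 unless another tool is named. A gene was called at a Benjamini-Hochberg adjusted p under 0.05 over all genes tested. Counts of genes at an unadjusted p under 0.05 are given without the share of all genes there, and are not read as support. For fits that left out a tumor or a line, the share of all genes called is not given either. Library totals ran from 14493982 to 71868238 counts with a median of 42327570. There were 6 shallow libraries of 14493982 to 18354547 counts, of which 2 were R and 4 NR, and 17 deep libraries of 37242336 to 71868238 counts, of which 10 were R and 7 NR. Counts of Glycam1, a gene of lymph node venules, were present in 3 tumors, CC002F1 isotype 1, CC079F1 aPD1 1 and CC080F1 aPD1 1, and the summed B cell markers there were 1481, 1134 and 4036 normalized counts. Skeletal muscle markers, summed over 5 genes, were 4886 to 14490 normalized counts in 4 tumors, CC001F1 isotype 1, CC001F1 aPD1 1, CC075F1 aPD1 1 and CC080F1 isotype 2, and at most 1130 in the other tumors. Except where counts were summed per line, DESeq2 and edgeR fits of R against NR treated tumors of a line as independent. Their p-values therefore do not reflect that each class held only 3 lines. In limma fits, which let tumors of a line be correlated, the estimated correlation was 0.0152 over all, 0.0622 in isotype and 0.099 in aPD1 tumors. These fits thus came close to treating tumors as independent too. In whole tumors, fewer cells of a type and less RNA per cell cannot be told apart.

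Per kilobase of exon, Il2rg was the most abundant of the 8 transcripts, at 759 ± 391 normalized counts per kb (mean ± SD, n = 23 tumors). Il4ra followed at 437 ± 121 and Il15ra at 374 ± 55.4 normalized counts per kb. Il2rb, Il21r and Il15 lay lower, at 179 ± 110, 163 ± 54.5 and 120 ± 28.6 normalized counts per kb. The least abundant were Il7r, at 89.2 ± 58.2, and Il2ra, at 38.2 ± 13.8 normalized counts per kb. Some neighbours in this order were ranked alike in nearly all tumors: Il2rg exceeded Il4ra in 22 of 23 tumors, Il15ra exceeded Il2rb in 22 and Il7r exceeded Il2ra in 23. Others were less steady: Il21r exceeded Il15 in 20, Il4ra exceeded Il15ra in 18 and Il15 exceeded Il7r in 17. Il2rb and Il21r could not be ranked, since Il2rb was the higher per kb in 10 of 23 tumors. The highest tumor exceeded the lowest by 14.2-fold for Il7r, 7.72-fold for Il2rb and 5.24-fold for Il2rg, but by only 1.72-fold for Il15ra. The tumor CC075F1 aPD1 1 held the highest normalized count of Il2rg, Il2rb, Il4ra and Il21r, and CC001F1 aPD1 2 held that of Il15ra, Il7r and Il2ra.

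The genes lie on 5 mouse chromosomes (GRCm38, GENCODE vM21). Il2ra (ENSMUSG00000026770, chr2:11642807-11693193, plus strand) and Il15ra (ENSMUSG00000023206, chr2:11705290-11734317, plus strand) are neighbours with a gap of 12096 bases, and Il4ra (ENSMUSG00000030748, chr7:125552120-125579474, plus strand) and Il21r (ENSMUSG00000030745, chr7:125603429-125633570, plus strand) are neighbours with a gap of 23954 bases. No protein-coding gene is annotated in either gap. Il7r (ENSMUSG00000003882, chr15:9505788-9530176, minus strand) and Il2rb (ENSMUSG00000068227, chr15:78479256-78495271, minus strand) share a chromosome at a distance of 68.9 Mb. Il15 (ENSMUSG00000031712) is at chr8:82331632-82403222 on the minus strand, and Il2rg (ENSMUSG00000031304) at chrX:101264378-101268255 on the minus strand. Reads of Il2rg may be split with Gm20489, a gene model that overlaps it on the same strand. Il4ra and Il2ra also overlap other gene models, Gm44876 and Gm37881.

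Promoters were searched because Il2rg and several partner chains were higher together in R tumors. For 6 of the 8 genes, all but Il2rb and Il15, 7 RefSeq promoters (GRCm38.p6) were read. The 250 bases before each start were searched on both strands for a core of the interferon-stimulated response element (GAAANNGAAA), a STAT motif (TTCNNNGAA) and an NF-kappaB motif (GGGANNNNCC). The first was in none of the 7 and in 2.98% of all 32851 promoters, the second in that of Il7r and in 7.02% of all, and the third in those of Il2ra and Il21r and in 17.6% of all. Each stretch shown holds 1 match. The stretches with a match follow, 5′ to 3′ on the strand of the gene, with the matched letters in capitals (for Il21r, the match reads on the opposite strand). They are at chr2:11642561-11642630 (plus strand, outside annotated genes), chr7:125603179-125603237 (plus strand, outside annotated genes) and chr15:9529980-9530048 (minus strand, within Il7r, where 8 of the bases are in an exon of a non-coding Il7r transcript).
Il2ra: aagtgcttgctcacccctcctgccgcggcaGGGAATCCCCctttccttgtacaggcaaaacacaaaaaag
Il21r: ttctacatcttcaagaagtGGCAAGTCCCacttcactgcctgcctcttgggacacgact
Il7r: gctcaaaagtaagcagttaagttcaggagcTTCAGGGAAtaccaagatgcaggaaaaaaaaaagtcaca
The 100 bases before the start of Il2rg, the gene with the smallest adjusted p between R and NR tumors, held none of the 3 motifs. They are at chrX:101268256-101268355 (minus strand), within an intron of Gm20489 and with no exon bases, and 50% of them are G or C.
Il2rg: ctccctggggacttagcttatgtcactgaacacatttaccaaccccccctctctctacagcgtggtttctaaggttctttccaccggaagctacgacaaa

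The first comparison was between tumors of R and NR hosts. Over all 23 tumors, adjusted for antibody, 6 of the 8 genes were higher in R tumors and none was lower: Il2rg, Il2rb, Il2ra, Il15ra, Il4ra and Il21r. Of all 17643 genes tested, 14.4% were called and 7.66% were called higher. Since the 8 genes were chosen with earlier results of these data known, such shares are a description. The study had already ranked Il2rb among its top genes differing between R and NR tumors within mapped loci, so its call is not independent evidence. The fitted differences of the other 2, Il7r and Il15, were also positive but did not pass. The median log2 difference of the 8 genes was 0.47, against 0.00 over all genes, a description since the 8 genes move together across tumors. With edgeR 5 of the 8 passed, where 6.7% of all genes did. With limma, at an estimated correlation within a line of only 0.0152, 5 passed, where 6.16% of all genes did.

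**Figure D1:**
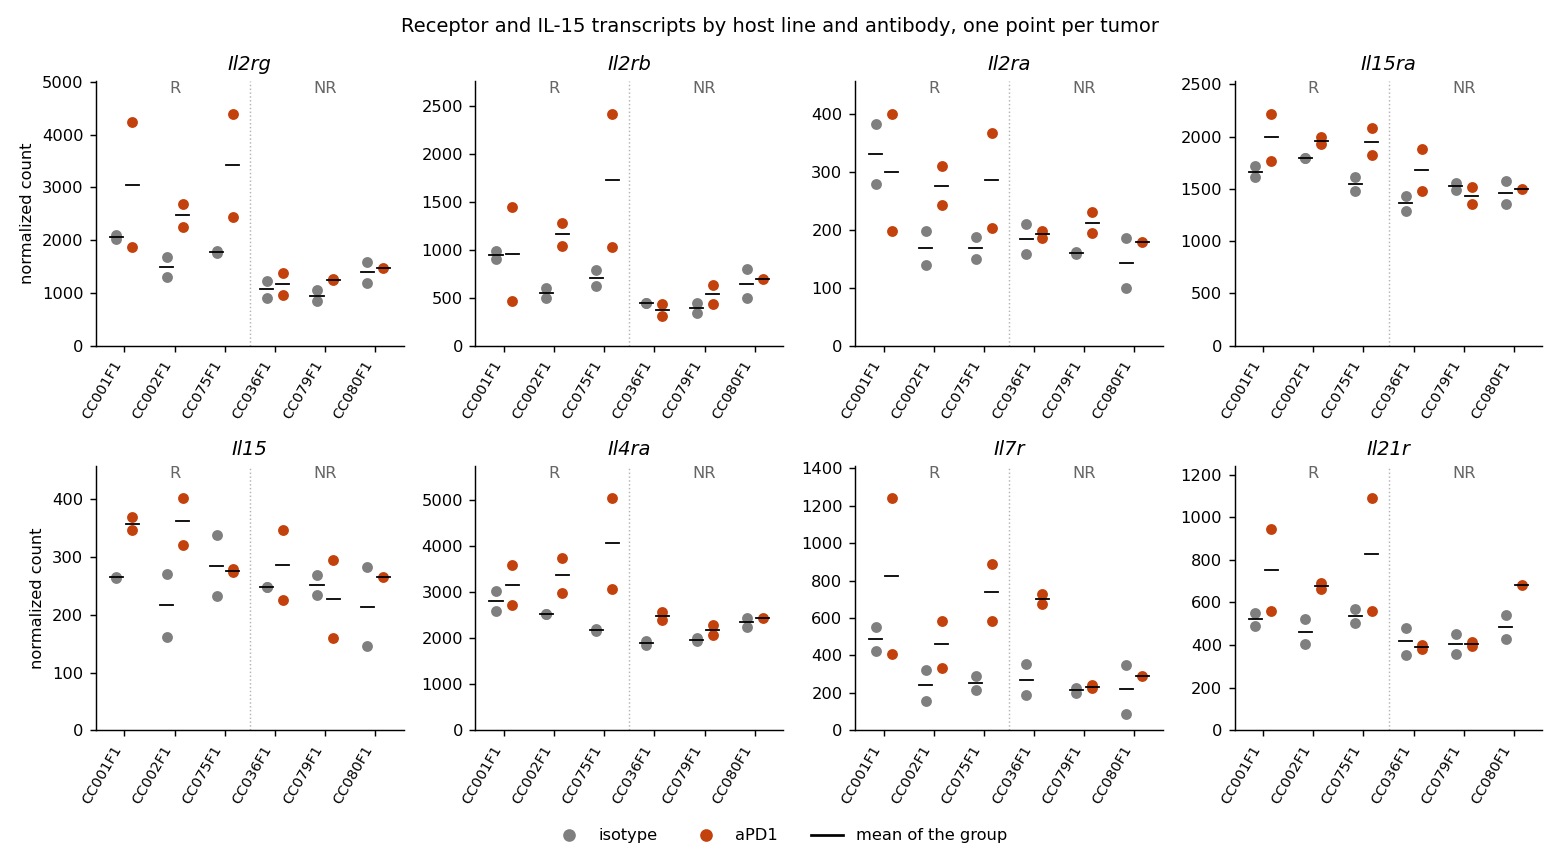
Normalized counts (vertical axes, each from 0) of the 8 genes in each of the 23 tumors, by host line (horizontal axes), with isotype tumors in grey, aPD1 tumors in orange and the mean of each group as a black bar; the dotted line separates R from NR lines. All aPD1 tumors of the R lines lie above all aPD1 tumors of the NR lines for Il2rg and Il4ra, and the highest Il2rb value, 2424, is in a CC075F1 aPD1 tumor.

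Il2rg, the signalling chain shared by the family, showed the clearest separation. Its normalized counts in R isotype tumors were 2013 and 2093 in CC001F1, 1690 and 1302 in CC002F1 and 1765 and 1791 in CC075F1. In NR isotype tumors they were 1228 and 905 in CC036F1, 840 and 1055 in CC079F1 and 1583 and 1196 in CC080F1. Thus 5 of 6 R isotype tumors lay above the highest NR isotype tumor, and the remaining CC002F1 tumor overlapped the NR range. With aPD1 the R values were 1864 and 4242 in CC001F1, 2689 and 2257 in CC002F1 and 4398 and 2447 in CC075F1. The NR values with aPD1 were 1381 and 960 in CC036F1, 1260 and 1245 in CC079F1 and 1469 in CC080F1. All 6 R aPD1 tumors lay above all 5 NR aPD1 tumors, as they did for Il4ra, so that 2 of the 8 genes separated without overlap where 2.57% of all genes did so with R higher. In isotype tumors none of the 8 did, where 0.431% of all genes did. The R against NR difference of Il2rg was 0.93 ± 0.14 on the log2 scale over all tumors (log2 difference ± SE, DESeq2 adjusted p = 2.65e-08, edgeR adjusted p = 0.000459, limma adjusted p = 0.00128), and it passed in all 29 fits that left out a tumor or a host line.

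Il2rb, the beta chain that IL-2 and IL-15 receptors share, had normalized counts in R isotype tumors of 993 and 906 in CC001F1, 607 and 500 in CC002F1 and 786 and 622 in CC075F1. In NR isotype tumors they were 450 and 450 in CC036F1, 442 and 347 in CC079F1 and 801 and 497 in CC080F1. The isotype ranges overlapped, chiefly through the CC080F1 tumor at 801, and 2 of 6 R tumors lay above it. With aPD1 the R values were 467 and 1446 in CC001F1, 1044 and 1282 in CC002F1 and 2424 and 1027 in CC075F1. The NR values with aPD1 were 434 and 314 in CC036F1, 439 and 636 in CC079F1 and 701 in CC080F1. All but 1 of the R aPD1 tumors exceeded every NR aPD1 tumor, the exception being CC001F1 aPD1 1 at 467. Over all tumors the log2 difference of Il2rb was 0.93 ± 0.23 (DESeq2 adjusted p = 0.00118, edgeR adjusted p = 0.00708, limma adjusted p = 0.0222), and it passed in all 29 fits without a tumor or a line.

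Il2ra, the alpha chain that gives the IL-2 receptor its high affinity and that regulatory and activated T cells carry, was the scarcest of the 8 transcripts. Its normalized counts had a lowest, median and highest value of 139, 193 and 382 in R isotype tumors and of 99.9, 160 and 210 in NR isotype tumors. With aPD1 these were 198, 276 and 401 in R tumors, and the 5 NR tumors held 198, 186, 194, 231 and 180. The groups overlapped under both antibodies, and CC001F1 was the highest line, at 315 ± 94.5 (mean ± SD, n = 4). Over all tumors the log2 difference of Il2ra was 0.48 ± 0.16 (DESeq2 adjusted p = 0.0223), but it did not pass with edgeR (adjusted p = 0.0642) or limma (adjusted p = 0.146), nor among the deep libraries (0.38, DESeq2 adjusted p = 0.138). It was also lost without the line CC001F1 (0.28, DESeq2 adjusted p = 0.226), without the line CC036F1, CC079F1 or CC080F1 (DESeq2 adjusted p = 0.0539, 0.0699 and 0.0755) and without the tumor CC001F1 isotype 1, isotype 2 or aPD1 2 (DESeq2 adjusted p = 0.0505, 0.0609 and 0.0547). Of the 4 markers of regulatory T cells (Foxp3, Ikzf2, Ctla4 and Tnfrsf18), none was called in this comparison, with 2 at an unadjusted p under 0.05. Their summed level had medians of 1421 in R isotype, 1241 in NR isotype, 1641 in R aPD1 and 1464 in NR aPD1 tumors. Most of that sum was Ikzf2, with means of 1110, 950, 1171 and 1091 in these groups. The means were 79.4, 61.3, 96.9 and 79.9 for Foxp3, 94.2, 73.3, 190 and 111 for Ctla4 and 142, 136, 185 and 131 for Tnfrsf18. The sum therefore says little of the scarcer markers.

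Il15ra, which binds IL-15 and presents it to neighbouring cells, varied least. Its normalized counts had a lowest, median and highest value of 1481, 1670 and 1795 in R isotype tumors and of 1291, 1460 and 1572 in NR isotype tumors. With aPD1 these were 1768, 1960 and 2220 in R tumors, and the 5 NR tumors held 1881, 1484, 1357, 1516 and 1503. Of the 6 R isotype tumors 5 exceeded the highest NR isotype tumor, and of the 6 R aPD1 tumors 4 exceeded the highest NR aPD1 tumor, CC036F1 aPD1 1 at 1881. The log2 difference of Il15ra over all tumors was small but narrow in error, 0.27 ± 0.06 (DESeq2 adjusted p = 0.000183, edgeR adjusted p = 0.00277, limma adjusted p = 0.0075). Il15 itself had lowest, median and highest normalized counts of 161, 265 and 338 in R isotype tumors, 146, 248 and 282 in NR isotype tumors and 275, 334 and 402 in R aPD1 tumors, and the 5 NR aPD1 tumors held 347, 226, 160, 296 and 266. These groups overlapped throughout. The log2 difference of Il15 was 0.22 ± 0.13 with a 95% confidence interval of -0.03 to 0.48 (DESeq2 adjusted p = 0.269), an interval that includes 0.

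Il4ra encodes the chain that binds IL-4 and is also part of a receptor for IL-13. Its lowest, median and highest normalized counts were 2155, 2528 and 3028 in R isotype tumors and 1849, 1970 and 2435 in NR isotype tumors. With aPD1 these were 2706, 3327 and 5033 in R tumors, and the 5 NR tumors held 2388, 2563, 2066, 2278 and 2439. The isotype ranges overlapped and the aPD1 ranges did not. The log2 difference of Il4ra over all tumors was 0.42 ± 0.09 (DESeq2 adjusted p = 0.000115, edgeR adjusted p = 0.00243, limma adjusted p = 0.00608). Il21r, the chain that binds IL-21, had lowest, median and highest normalized counts of 404, 513 and 570 in R isotype tumors, 354, 441 and 540 in NR isotype tumors and 558, 677 and 1090 in R aPD1 tumors, and the 5 NR aPD1 tumors held 380, 402, 397, 414 and 680. The NR tumor at 680, from CC080F1, overlapped the R aPD1 range, while the other NR aPD1 tumors lay below it. The log2 difference of Il21r was 0.46 ± 0.13 (DESeq2 adjusted p = 0.00576, edgeR adjusted p = 0.0252, limma adjusted p = 0.0216), and it was lost without the line CC036F1 (0.37, DESeq2 adjusted p = 0.0781) or CC079F1 (0.38, DESeq2 adjusted p = 0.0818).

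Il7r, the alpha chain for IL-7 that naive and memory T cells carry, was not called in this comparison and was the most variable of the 8. Its normalized counts in R isotype tumors were 424 and 554 in CC001F1, 324 and 155 in CC002F1 and 288 and 215 in CC075F1, and in NR isotype tumors 189 and 354 in CC036F1, 200 and 228 in CC079F1 and 350 and 87 in CC080F1. With aPD1 the R values were 406 and 1241 in CC001F1, 587 and 332 in CC002F1 and 891 and 585 in CC075F1, and the NR values 729 and 673 in CC036F1, 225 and 242 in CC079F1 and 288 in CC080F1. Both CC036F1 aPD1 tumors stood within the R range. Il7r was the only member whose 6 line means over both antibodies overlapped between the classes. For the other 7, every R line mean lay above every NR line mean, where 12.9% of all genes did so. These means mix antibodies, and CC080F1 had 1 aPD1 tumor to 2 isotype tumors. Within each antibody the line means of Il21r and Il15 also overlapped. For Il21r, CC080F1 had 484 with isotype and 680 with aPD1, against 462 and 677 in CC002F1. For Il15, CC036F1 had 248 and 287, against 216 in CC002F1 with isotype and 277 in CC075F1 with aPD1. With isotype alone, the line means of Il2ra, Il2rb and Il4ra overlapped too. The log2 difference of Il7r was 0.55 ± 0.29 with a 95% confidence interval of -0.01 to 1.11 (DESeq2 adjusted p = 0.199). Without the line CC036F1 it was 0.95 (DESeq2 adjusted p = 0.0316), and among the deep libraries 0.24 (DESeq2 adjusted p = 0.726).

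Split by antibody, the class difference was called for 1 of the 8 genes in isotype tumors and for 5 in aPD1 tumors. In isotype tumors 5.53% of all genes were called and 2.29% were called higher, and Il2rg alone of the 8 passed, at 0.64 ± 0.14 on the log2 scale (DESeq2 adjusted p = 0.00146). That call did not hold with edgeR (adjusted p = 0.0716), limma (adjusted p = 0.132) or the deep libraries (DESeq2 adjusted p = 0.162), nor without the line CC001F1 (0.53, DESeq2 adjusted p = 0.0602). With DESeq2 4 of the 8 had an unadjusted p under 0.05, and so with edgeR, which called none of the 8 (0.122% of all genes) as did limma (0.0122%): the next after Il2rg were Il4ra (0.28, DESeq2 adjusted p = 0.0529), Il2rb (0.56, DESeq2 adjusted p = 0.0628) and Il15ra (0.20, DESeq2 adjusted p = 0.0836). Leaving out single tumors moved the count to 4 (without CC075F1 isotype 2 or CC080F1 isotype 1) or 2 (without CC002F1 isotype 2, CC075F1 isotype 1 or CC080F1 isotype 2), and leaving out a line to 0 (CC001F1), 2 (CC002F1) or 3 (CC075F1 or CC080F1).

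In aPD1 tumors 7.93% of all genes were called and 5.94% were called higher, and 5 of the 8 were higher in R tumors. Il2rg differed by 1.24 ± 0.20 on the log2 scale (DESeq2 adjusted p = 3.79e-07, edgeR adjusted p = 0.00931, limma adjusted p = 0.0445). Il2rb differed by 1.34 ± 0.38 (DESeq2 adjusted p = 0.00878, edgeR adjusted p = 0.0449, limma adjusted p = 0.147) and Il4ra by 0.58 ± 0.14 (DESeq2 adjusted p = 0.0012, edgeR adjusted p = 0.0326, limma adjusted p = 0.0897). Il15ra, at 0.34 ± 0.10 (DESeq2 adjusted p = 0.00745), and Il21r, at 0.72 ± 0.20 (DESeq2 adjusted p = 0.00902), did not pass with edgeR (adjusted p = 0.054 and 0.0812). So edgeR called 3 of the 8, where it called 2.25% of all genes, and limma called 1, Il2rg, where it called 0.798%. Il2ra (0.55, DESeq2 adjusted p = 0.0602), Il15 (0.36, DESeq2 adjusted p = 0.26) and Il7r (0.64, DESeq2 adjusted p = 0.482) were not called. The Il2rb call was lost without CC036F1 (1.11, DESeq2 adjusted p = 0.148), CC075F1 (1.07, DESeq2 adjusted p = 0.0754) or CC079F1 (1.40, DESeq2 adjusted p = 0.0585), and the count fell to 2 without CC079F1. These comparisons use different tumors, and whether the class difference changed with the antibody is the interaction test given further on.

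**Figure D2:**
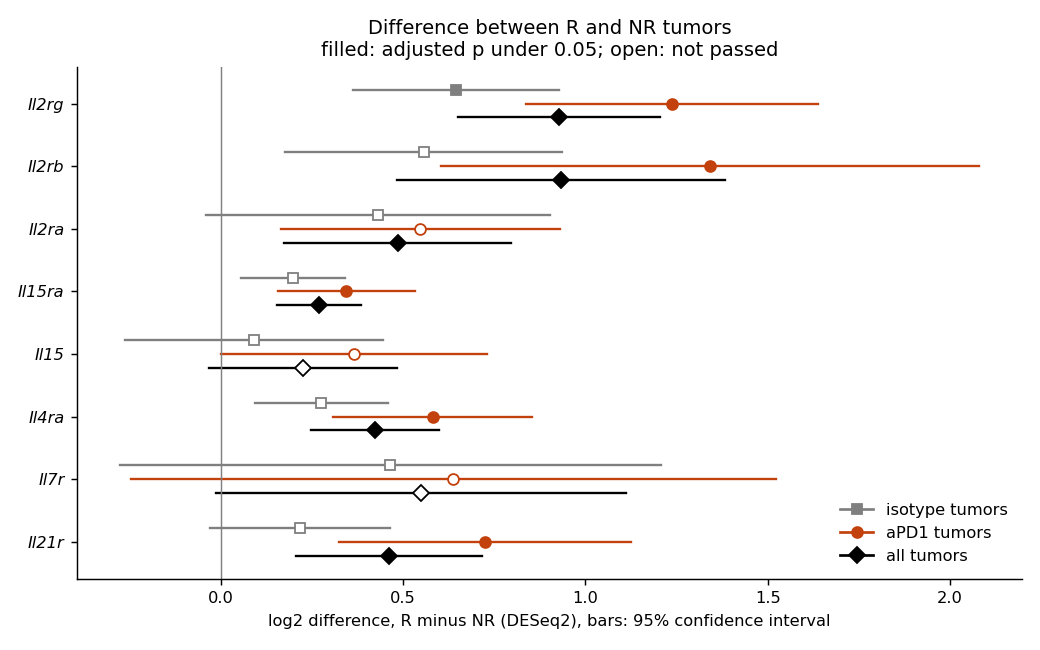
Log2 difference of R minus NR tumors (horizontal axis, DESeq2, with bars for the 95% confidence interval) of the 8 genes (vertical axis), for isotype tumors (grey squares), aPD1 tumors (orange circles) and all tumors (black diamonds), filled where the adjusted p was under 0.05. All 24 differences are above 0, with 1 of 8 filled for isotype, 5 for aPD1 and 6 for all tumors.

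Markers of T and NK cells moved with these genes. Of 10 T cell markers 9 were called higher in R tumors over all tumors, where 7.66% of all genes were. So were 3 of 5 NK cell, 3 of 3 pan-leukocyte and 3 of 6 macrophage markers. A marker not called could still have a higher mean in R tumors, as Cd4 did under both antibodies. The summed T cell markers had a lowest, median and highest normalized count of 1429, 2443 and 3086 in R isotype, 865, 1017 and 2459 in NR isotype, 1704, 3402 and 6192 in R aPD1 and 957, 1344 and 2341 in NR aPD1 tumors. The summed NK cell markers had medians of 503 and 354 in R and NR isotype tumors and of 831 and 354 in R and NR aPD1 tumors, over ranges of 307 to 820, 241 to 546, 383 to 1605 and 254 to 468. None of these T or NK cell markers was at 0 throughout a group. The part of cell numbers in the receptor differences was not tested, apart from the ratio of Il2rb to Cd3 below. In aPD1 tumors 5 of 6 B cell and 3 of 5 lymph node markers were called lower in R tumors, 2 of the 5 NR tumors being those with Glycam1 counts. Of all genes 7.93% were called there in either direction. Without the 3 Glycam1 tumors, 5 of the 8 genes were called over all tumors, where 11.2% of all genes were, and 4 in aPD1 tumors, where 7.57% were. Without the 4 tumors rich in muscle markers, a choice made after seeing the data, 5 of the 8 were called over all tumors, where 10.4% of all genes were, Il2ra being lost (0.40, DESeq2 adjusted p = 0.113), and 5 in aPD1 tumors, where 6% were.

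Il2rb was set against the T cell receptor complex by dividing it by the summed normalized counts of Cd3d, Cd3e and Cd3g. In isotype tumors this ratio was 1.46 and 2.21 in CC001F1, 1.45 and 2.20 in CC002F1 and 1.31 and 1.29 in CC075F1, all R. In the NR isotype tumors it was 1.66 and 2.72 in CC036F1, 5.22 and 3.02 in CC079F1 and 1.51 and 6.69 in CC080F1. The mean ratio was 1.65 ± 0.43 in R and 3.47 ± 2.07 in NR isotype tumors (mean ± SD, n = 6 each), and the ranges overlapped. The NR tumors with the largest ratios had few Cd3 transcripts, 74 normalized counts at a ratio of 6.69 and 85 at 5.22. The R minus NR difference in mean log2 ratio was -0.89 in isotype tumors (two-sided exact permutation test over 924 assignments, p = 0.0411, Benjamini-Hochberg adjusted p = 0.0823 over 2 comparisons), so it did not pass after adjustment. With Cd8a and Cd8b1 as the denominator it was -1.62 (exact permutation p = 0.013), with T and NK cell genes -0.38 (exact permutation p = 0.0996), and over host line means -0.89 at an exact permutation p of 0.1, the smallest that 3 against 3 lines allow. In aPD1 tumors the ratio ran from 1.29 to 2.26 in R and was 1.70, 1.53, 1.67, 5.57 and 1.63 in NR tumors. Their mean log2 ratios differed by -0.22 (exact permutation p = 0.717). It turned to 0.13 without the tumor CC079F1 aPD1 2, which held the ratio of 5.57, and to 0.06 among the deep libraries, and was -0.45 without the Glycam1 tumors (exact permutation p = 0.369) and -0.51 with Cd8a and Cd8b1 as the denominator (exact permutation p = 0.106). The isotype tumor with the ratio of 6.69, CC080F1 isotype 2, held 5344 normalized counts of muscle markers, against 40.7 to 219 in the other NR isotype tumors. Without the tumors rich in muscle markers the differences were -0.63 in isotype (exact permutation p = 0.127) and -0.14 in aPD1 tumors (exact permutation p = 0.937).

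**Figure D3:**
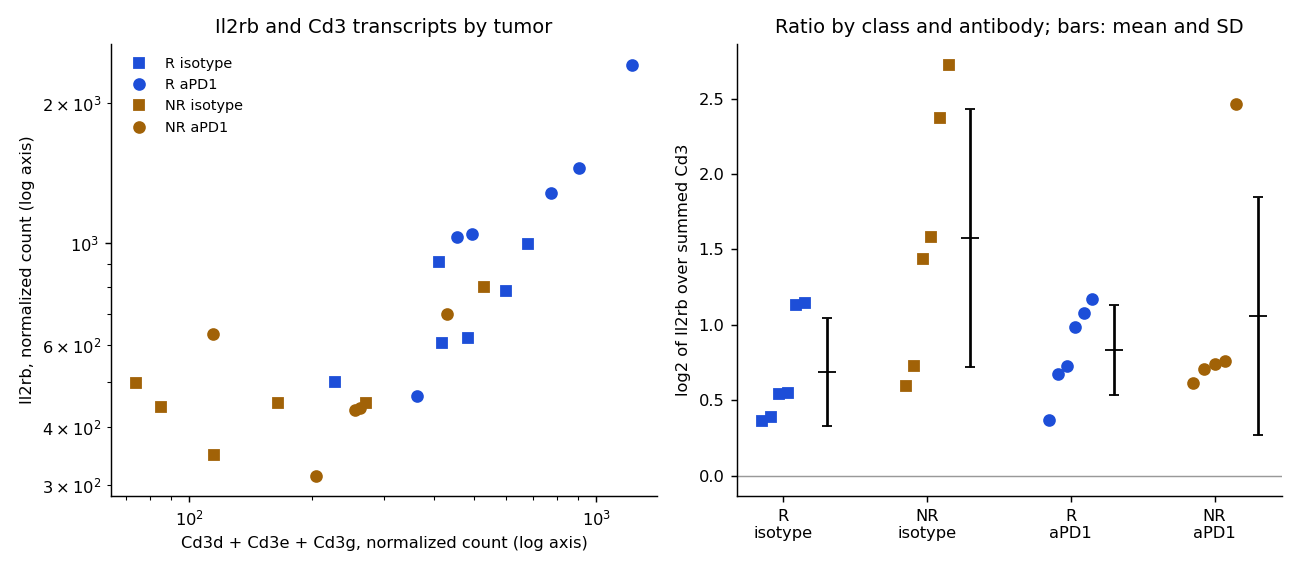
Left, Il2rb against the sum of Cd3d, Cd3e and Cd3g (normalized counts, both axes log) in the 23 tumors, blue for R and brown for NR, squares for isotype and circles for aPD1. Right, log2 of the ratio (vertical axis) by class and antibody, with mean and SD in black; the NR groups spread widest, reaching ratios of 6.69 with isotype and 5.57 with aPD1.

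The second comparison was aPD1 against isotype, with host line as a term. In the R lines 5 of the 8 genes were higher with aPD1 at 48 h: Il2rg, Il21r, Il4ra, Il7r and Il15ra. Of all genes 5.26% were called there and 4.85% were called higher. In the NR lines none of the 8 was called. No member was lower with aPD1 in any of these fits. Leukocyte markers moved with them in the R lines: 2 of 3 pan-leukocyte markers were called higher, Cd52 (0.56, DESeq2 adjusted p = 0.0119) and Laptm5 (0.49, DESeq2 adjusted p = 0.00941), while Ptprc was not (0.58, DESeq2 adjusted p = 0.101), and 2 of 6 macrophage and none of 5 NK cell or 3 fibroblast markers were called. The summed pan-leukocyte markers ran from 11970 to 14910 normalized counts in R isotype and from 12800 to 29240 in R aPD1 tumors, and from 6898 to 14380 and 8088 to 12980 in the NR groups. Their part in the receptor differences was not tested, nor that of the fibroblast markers, whose sums had medians of 8920 and 12470 in R isotype and R aPD1 tumors.

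In the R lines Il7r had the largest fitted rise, 1.07 ± 0.34 on the log2 scale (DESeq2 adjusted p = 0.0323), from group means of 489 to 824 in CC001F1, 240 to 459 in CC002F1 and 251 to 738 in CC075F1 normalized counts. Il2rg rose by 0.74 ± 0.18 (DESeq2 adjusted p = 0.00317), from 2053 to 3053, 1496 to 2473 and 1778 to 3422 in the same lines. Both genes were higher with aPD1 in all 3 lines by group mean, but the isotype and aPD1 tumors of CC001F1 overlapped for each. Il21r rose by 0.56 ± 0.16 (DESeq2 adjusted p = 0.0166), Il4ra by 0.48 ± 0.14 (DESeq2 adjusted p = 0.0196) and Il15ra by 0.23 ± 0.07 (DESeq2 adjusted p = 0.0387). Il2rb did not pass at 0.79 ± 0.35 (95% confidence interval 0.10 to 1.47, DESeq2 adjusted p = 0.212), nor did Il2ra at 0.44 (DESeq2 adjusted p = 0.331) or Il15 at 0.37 (DESeq2 adjusted p = 0.237). With edgeR none of the 8 passed in the R lines, with adjusted p from 0.0746 to 0.516, and edgeR called 0% of all genes. With either tool 7 had an unadjusted p under 0.05. Among the deep libraries 3 passed, where 5.91% of all genes did.

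The calls in R lines rested on few tumors. Of 15 fits that left out a tumor or a line, Il2rg passed in 12, Il21r in 8, Il4ra in 8, Il7r in 5 and Il15ra in 2. Without CC002F1 aPD1 1 none of the 8 passed, without CC001F1 aPD1 2, CC002F1 isotype 2 or CC075F1 isotype 1 there was 1, without CC001F1 isotype 1, CC075F1 isotype 2 or CC075F1 aPD1 1 there were 2 and without CC075F1 aPD1 2 there were 3. None passed without the line CC002F1 and 2 without CC075F1. For Il2rb the tumor CC001F1 aPD1 1 decided the call. That tumor, at 467 against 993 and 906 in the CC001F1 isotype tumors, set the line's mean log2 effect to -0.21, against 1.07 in CC002F1 and 1.17 in CC075F1, where isotype and aPD1 tumors did not overlap. Without it the effect on Il2rb in R lines was 1.03 (DESeq2 adjusted p = 2.37e-06), and without the line CC001F1 1.17 (DESeq2 adjusted p = 1.45e-05). The same tumor had 362 summed Cd3 counts, against 679 and 410 in the isotype tumors and 905 in the other aPD1 tumor of that line. It also held the largest muscle marker sum of all tumors, 14490 normalized counts, against 44.2 in the other aPD1 tumor and 6612 and 19.3 in the isotype tumors of that line. Without the 4 tumors rich in muscle markers 5 of the 8 were again called in R lines, where 5.06% of all genes were: Il2rb now passed (0.82, DESeq2 adjusted p = 7.65e-07), with Il2rg, Il4ra, Il7r and Il21r, and Il15ra did not (0.20, DESeq2 adjusted p = 0.122).

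**Figure D4:**
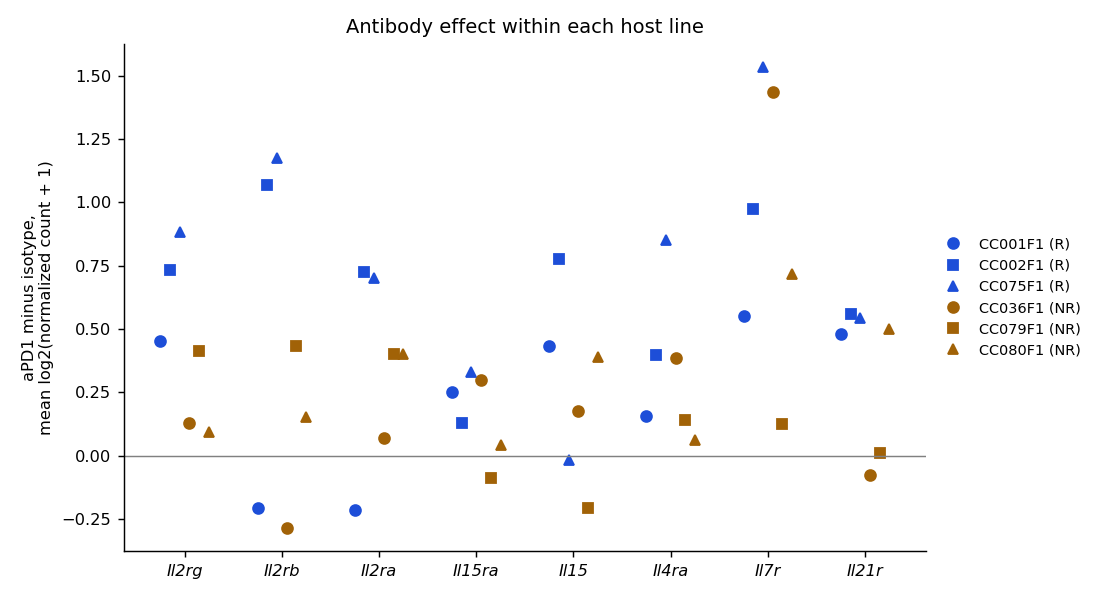
Mean log2(normalized count + 1) of aPD1 minus isotype tumors (vertical axis) within each of the 6 host lines for the 8 genes (horizontal axis), blue for R and brown for NR lines, 1 point per line. Il7r is raised most in CC075F1 and in the NR line CC036F1, and Il2rb is below 0 in CC001F1 and CC036F1.

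In the NR lines the antibody effects were smaller and none was called, where 0.0448% of all genes were. With DESeq2 1 of the 8 had an unadjusted p under 0.05, Il4ra at 0.22 ± 0.07 (unadjusted p = 0.00327, adjusted p = 0.534), and with edgeR, which called none of the 8 and 0.0204% of all genes, 2 did. Il7r was the most uneven: in CC036F1 it went from a mean of 271 to 701 normalized counts without overlap, a mean log2 effect of 1.43, close to the 1.53 of CC075F1, whereas in CC079F1 the means were 214 and 233. Its fitted effect in NR lines was 0.66 ± 0.39 (DESeq2 adjusted p = 1), and without CC080F1 isotype 1 it was 0.93 (DESeq2 adjusted p = 0.0223). Il2rb fell short of any common direction, with mean log2 effects of -0.29 in CC036F1, 0.43 in CC079F1 and 0.15 in CC080F1.

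Over all 6 lines 2.79% of genes were called and 2.55% were called higher, and 3 of the 8 were higher with aPD1: Il4ra (0.36 ± 0.09, DESeq2 adjusted p = 0.0112), Il2rg (0.50 ± 0.13, DESeq2 adjusted p = 0.0138) and Il7r (0.89 ± 0.25, DESeq2 adjusted p = 0.0279). With edgeR none passed (adjusted p = 0.07, 0.0808 and 0.0808), where 0.0569% of all genes did, with 7 of the 8 at an unadjusted p under 0.05 in both tools. The count was 5 without CC001F1 aPD1 1, was 1 without CC001F1 aPD1 2, CC002F1 aPD1 1, CC075F1 isotype 2 or the line CC002F1, and was 0 without the line CC075F1.

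The effect of aPD1 was then compared between R and NR lines by an interaction term. None of the 8 differed, where 0.0342% of all genes did. With DESeq2 2 had an unadjusted p under 0.05, Il2rg (0.53, unadjusted p = 0.03, adjusted p = 0.671) and Il21r (0.48, unadjusted p = 0.0341, adjusted p = 0.697), and edgeR called none of the 8 and 0% of all genes, with 2 of the 8 at an unadjusted p under 0.05. For Il2rb the interaction was 0.71 with a 95% confidence interval of -0.12 to 1.53 (DESeq2 adjusted p = 0.86). Here too CC001F1 aPD1 1 mattered: without it Il2rb (0.96, DESeq2 adjusted p = 0.0318) and Il2rg (0.67, DESeq2 adjusted p = 0.0411) passed, and without the line CC001F1 the interaction of Il2rb was 1.10 (DESeq2 adjusted p = 0.0465). Without the 4 tumors rich in muscle markers none of the 8 passed, where 0.648% of all genes did, and Il2rb was at 0.81 (DESeq2 adjusted p = 0.0641). With all 23 tumors, then, the 5 calls in R lines against none in NR lines did not amount to a difference of the effects that passed a test.

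Host lines were also compared without use of the class. A likelihood ratio test over all 6 lines called 6 of the 8 genes, where 16% of all genes were called: Il2rg (DESeq2 adjusted p = 3.61e-09), Il4ra (0.00258), Il2rb (0.0047), Il21r (0.00478), Il15ra (0.0106) and Il2ra (0.0415). The count was 5 with edgeR (6.32% of all genes called), 2 among the deep libraries (12.3% called) and 2 without the line CC036F1 or CC079F1. Among the 3 R lines none was called, where 1.05% of all genes were, with 0 of the 8 at an unadjusted p under 0.05 in DESeq2 and 1 in edgeR, which called none (0.35% of all genes), and 2 were called without CC001F1 aPD1 1. Among the 3 NR lines Il2rb was called (DESeq2 adjusted p = 0.0289, 9.46% of all genes called), with means of 412 ± 65.6 in CC036F1, 466 ± 122 in CC079F1 and 666 ± 155 in CC080F1 normalized counts (mean ± SD, n = 4, 4 and 3). That call did not hold with edgeR (adjusted p = 0.0714, 4.42% of all genes called). It was lost without the line CC036F1 and without CC036F1 aPD1 1, CC079F1 isotype 1, CC079F1 aPD1 1 or CC080F1 aPD1 1, when none of the 8 was called, and the count was 4 without CC036F1 isotype 1, 3 without CC080F1 isotype 2 and 2 without CC079F1 isotype 2. Among the deep libraries 3 of the 8 were called in the NR lines, where 7.01% of all genes were, Il2rb (DESeq2 adjusted p = 0.00029), Il21r (0.00021) and Il7r (0.000865). That fit held 7 tumors, among them CC079F1 aPD1 1 and CC080F1 aPD1 1 with Glycam1 counts, and had no edgeR counterpart. Without the Glycam1 tumors none of the 8 was called in the NR lines.

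The ligands and the signalling genes of the pathway were counted from a list of 27 further genes with counts. Ligand transcripts were scarce in these tumors. Il7, made mainly by stromal cells, had medians of 52.6, 44.1, 39.0 and 59.3 normalized counts in R isotype, NR isotype, R aPD1 and NR aPD1 tumors, Il2 was at most 26.1, and Il4, Il13, Il21 and Tslp, the ligand of a receptor that pairs Il7r with Crlf2, were at most 13.2. No ligand was called in any comparison, and of the 6 ligands DESeq2 gave an adjusted p over all tumors for Il7 alone. At such low counts the lack of a call does not show that the others were alike between groups. Il9 was not analysed here.

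Of the pathway genes, 4 of the 22 with an adjusted p were higher in R tumors over all tumors, where 7.66% of all genes were, and none was lower: Tyk2 (0.29, DESeq2 adjusted p = 0.00997), a kinase of several cytokine receptors, Socs1 (0.36, 0.0385) and Socs3 (0.39, 0.0165), feedback inhibitors of JAK signalling, and Mcl1 (0.16, 0.0179), a survival factor. With edgeR 2 of them passed, Tyk2 and Mcl1, and Socs1 passed with DESeq2 in 14 of the 29 fits that left out a tumor or a line. The median log2 difference of the pathway genes was 0.02, against 0.47 for the 8 receptor and IL-15 genes. In isotype tumors none was called with DESeq2 (of 21 with an adjusted p) or edgeR (of 27), with 1 at an unadjusted p under 0.05 in each. In aPD1 tumors 3 of 22 were higher in R tumors, where 5.94% of all genes were: Tyk2 (0.48, DESeq2 adjusted p = 0.000231), Socs3 (0.69, 0.00392) and Mcl1 (0.25, 0.0416), of which edgeR called Tyk2. The Mcl1 call held in 6 of 17 fits that left out a tumor or a line. The STAT proteins that this family uses most were not among the genes called: Stat5a had means of 768 ± 113, 814 ± 71.5, 763 ± 69.2 and 797 ± 56.5 normalized counts in R isotype, NR isotype, R aPD1 and NR aPD1 tumors, and Stat5b of 2876 ± 82.7, 2709 ± 155, 2951 ± 86.1 and 2843 ± 83.9. None of Jak1, Jak3, Stat6, Crlf2 and Il13ra1, the last the partner of Il4ra in a receptor for IL-13, was called.

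With aPD1 in the R lines, 5 of the 21 pathway genes with an adjusted p rose, where 4.85% of all genes were called higher, and none fell: Socs3 by 0.81 (DESeq2 adjusted p = 2.6e-05), Pim1, a survival kinase induced by STAT signalling, by 0.69 (0.00121), Mcl1 by 0.27 (0.0116), Stat3 by 0.36 (0.0166) and Socs1 by 0.51 (0.0345). Of 15 fits that left out a tumor or a line Stat3 passed in 6 and Socs1 in 5. With edgeR none of these passed, with 9 of the 27 at an unadjusted p under 0.05. In the NR lines none of 27 was called with DESeq2 or edgeR, with 2 at an unadjusted p under 0.05 in each, and none differed between the classes in the interaction, with 5 at an unadjusted p under 0.05 in DESeq2. In the R lines all 6 interferon response markers outside this list were called higher with aPD1, while none of the 10 T cell markers was called, with 4 at an unadjusted p under 0.05. Of the interferon markers, 5 of 6 were also called higher in R tumors over all tumors, where 7.66% of all genes were. Their part in the receptor differences was not tested.

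The genes whose levels most resembled each member were ranked by Spearman correlation of log2(normalized count + 1) over the 23 tumors, among 12055 genes with a mean of at least 100 normalized counts. All points share the same libraries, and the correlations are a description. Il2rg was most like Itgal (rho = 0.98), Klrk1 (0.98) and AW112010 (0.97), the first an integrin chain of leukocytes and the second an activating receptor of NK and CD8 T cells. Il2rb was most like Thy1 (0.94), a T cell surface protein, Rab27a (0.93), which serves granule release, and Rinl (0.93). Il4ra was most like AB124611 (0.95), Hk3 (0.91), a hexokinase of myeloid cells, and Pstpip1 (0.91), and Il21r like Hsd17b11 (0.92), Arhgap45 (0.91) and N4bp2l1 (0.91). Il7r was most like Gpr35 (0.92), Tbc1d9 (0.91) and Irgm1 (0.90), an interferon-induced GTPase.

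For the IL-15 pair the ranking held other names. Il15 was most like Gbp4 (0.82), H2-T22 (0.81) and Apol7e (0.80), the first an interferon-induced GTPase and the second a non-classical MHC class I gene, and Il15ra like Pirb (0.89), an inhibitory receptor of myeloid and B cells, Samhd1 (0.88) and Ly6a (0.88). Il2ra was most like Arf3 (0.88), Aldoc (0.85), an aldolase, and Gsap (0.83). Within classes the correlations were mostly lower in the NR tumors, for example 0.97 in the 12 R and 0.74 in the 11 NR tumors for Il2rb with Thy1, and 0.88 and 0.50 for Il15ra with Ly6a, while for Il15 with Gbp4 they were 0.71 and 0.86.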

How the data were processed

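Poly(A) RNA of 23 tumors was sequenced. The authors aligned reads with Bowtie 1.2.3 to transcriptomes of the founder strains on GRCm38 and deposited expected counts, estimated reads per gene not scaled for depth in which shared reads are split. Fractional entries made up 16.95% of the table, which was rounded. GENCODE vM21 matched 26681 of 26869 identifiers. Groups came from the labels, the R and NR class from the study's text. Tests were DESeq2 1.42.0 (R 4.3.3, Wald or likelihood ratio test, default options, at least 5 summed counts), with edgeR 4.0.16 quasi-likelihood and limma 3.58.1 voom (line as a random effect) as alternatives, besides other scalings and filters, deep libraries, a depth term, sums per line, and omission of tumors and lines. Omission of 4 tumors with over 2000 normalized counts of muscle markers was chosen after seeing the data. Counts were simulated with these library sizes, an assumed spread and no differences among lines. There DESeq2 made more false calls than its threshold states and edgeR stayed closer to it. The rates in these tumors may differ. Results of edgeR stand beside DESeq2 calls from fits that kept all tumors of a comparison. DESeq2 calls from fits that left out tumors or lines have no edgeR counterpart. Ratios were tested by exact permutation (scipy 1.17.1). All 11 replicate pairs differed beyond sampling noise (chi-square over its degrees of freedom 9.73 to 136). Named genes were the 8 members, pathway genes called in a comparison, ligands, and the 3 most similar genes per member, and 7 uncalled pathway genes were named after their values were seen; 1 gene of the pathway and interferon lists is not reported here. Members and lists were chosen with earlier results of these data known.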

Additional observations from a re-analysis of the deposited data

Results flagged for a closer look

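Of 36 groups of 5 or 6 tumors checked, 4 held a tumor farther from its group than Dixon's 95% critical value allows, and chance flags about 1 in 20 groups. For Il2rb the highest NR isotype tumor was CC080F1 isotype 1 at 800.6 normalized counts. For Il15 the lowest NR isotype tumor was CC080F1 isotype 2 at 146.0 normalized counts, a tumor that also held the highest Il2rb to Cd3 ratio of its group, 6.69, and its largest sum of skeletal muscle markers, 5344 normalized counts. For Il21r the highest NR aPD1 tumor was CC080F1 aPD1 1 at 679.8 normalized counts, a tumor with Glycam1 counts and the only aPD1 tumor of its line. For the Il2rb to Cd3 ratio the highest NR aPD1 tumor was CC079F1 aPD1 2 at 5.57. Their causes were not tested.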

How the results depend on the processing

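For most of the settings below the share of all genes called is not given, so the counts cannot be set against it. The number of the 8 genes called moved with the processing, and the causes were not tested. For R against NR in isotype tumors (1 called) it was 0 with edgeR, the deep libraries and limma, and 2 with TMM scaling, depth class as a term, the replicate block and without the tumors rich in muscle markers, and 0 to 4 without a tumor or a line. For R against NR in aPD1 tumors (5) it was 3 with edgeR and 1 with limma, and 2 to 6 without a tumor or line. Over all tumors (6) it was 4 to 6. With counts summed per line, which take the line as the unit, it was 1 in isotype, 5 in aPD1 and 6 over all tumors. For aPD1 in R lines (5) it was 0 with edgeR and 3 with the deep libraries, and 0 to 7 without a tumor or line; in NR lines (0) it was 0 to 1; over all lines (3) it was 0 with edgeR and 0 to 5 without a tumor or line; for the interaction (0) it was 0 to 2. Among all lines (6) it was 2 with the deep libraries and 2 to 7 without a tumor or line, among R lines (0) 0 to 2, and 3 without the muscle tumors, and among NR lines (1) it was 0 with edgeR, depth class as a term, the replicate block and without Glycam1 tumors, 3 with the deep libraries or without the muscle tumors and 0 to 4 without a tumor or line. The log2 Il2rb to Cd3 ratio difference in isotype tumors, which did not pass after adjustment, was -0.38 with T and NK cell genes as denominator, -0.86 without Glycam1 tumors, -0.63 without the muscle tumors and -0.89 over host line means (unadjusted exact permutation p from 0.0758 to 0.127, against 0.0411), and -1.08 to -0.66 without a tumor. In aPD1 tumors it was 0.0605 with the deep libraries, -0.45 without Glycam1 tumors, -0.51 with Cd8a and Cd8b1 as denominator and -0.34 to 0.13 without a tumor.

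Some log2 differences that had not been called changed sign. With the deep libraries these were Il2rb (-0.17) and Il15 (-0.11) for aPD1 in NR lines, and Il7r (-0.10) and Il15 (-0.0087) for R against NR in isotype tumors. For aPD1 in NR lines the values without a tumor or line ran from -0.12 to 0.29 for Il2rb (below 0 without CC079F1 isotype 2, CC079F1 aPD1 2 or that line), -0.0249 to 0.24 for Il15 (without CC036F1 aPD1 1), -0.0424 to 0.20 for Il15ra (without the line CC036F1) and -0.0361 to 0.20 for Il21r (without CC080F1 aPD1 1 or that line), and Il21r was -0.0343 without Glycam1 tumors. For R against NR in isotype tumors Il15 ran from -0.0103 to 0.19 (below 0 without CC075F1 isotype 2 or CC080F1 isotype 2) and was -0.0165 without the muscle tumors. Of the single-gene values under settings that kept all tumors and lines or dropped several by design, 632 kept direction and side of the threshold, 72 lost it, 9 gained it and 6 changed sign, and of those without a tumor or line 1388, 164, 34 and 9 did. The labels do not state that replicate numbers pair tumors. Deviations of same-numbered tumors correlated at 0.37, 0.062, -0.2, 0.2 and 0.11 in the 5 lines that could be checked. With 1 value per line, these cannot decide whether tumors of a number shared a batch. With the replicate block the exact permutation p of the isotype ratio was 0.005, the smallest that its 400 assignments allow in a two-sided test. Since no pairing by number is stated, that block has no basis in the labels and the value carries no weight. The ligands other than Il7 had few counts, and the lack of a call does not show that they were alike between groups.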
